A study of Mus musculus with 6 samples.

Results

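The genes described here belong to 3 hormone systems that reach fat cells: angiotensin, neuropeptide Y and the melanocortins. They are Agt, Ace, Agtr1a, Agtr2, Npy1r, Mrap and Mc2r, taken by symbol from the platform annotation. All 7 were on the array, each with 1 probe set, among 19938 genes that have a single symbol. The genes were chosen by their measured log2 values on these same arrays, in which Agtr2 and Npy1r were among the largest decreases of the adenine-treated adipocytes. Every value below is therefore a description, and none was tested.

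The cells were 3T3-L1, a clonal mouse fibroblast line that turns into fat cells when given inducing drugs, and total RNA from 6 cultures was measured on Affymetrix arrays, with 1 array and 1 culture per condition. The 3 fibroblast cultures grew in 10% calf serum, either untreated or, for 3 days, with adenine or AICAR at 0.5 mM each. The 3 adipocyte cultures were induced for 3 days in 10% fetal bovine serum with dexamethasone (1 µmol/l), IBMX (115 µg/ml) and insulin (1 µg/ml), to which nothing, adenine or AICAR was added, the latter 2 at 0.5 mM. All 3 adipocyte cultures then spent 3 more days in insulin medium without a compound. Adenine is a free purine base, and AICAR is a ribonucleoside that cells phosphorylate to an analogue of AMP. The difference between the cell states therefore also holds the inducing drugs, the change of serum and the further days in insulin medium. With adenine or AICAR it also holds the 3 days without the compound in adipocytes. These cannot be told apart.

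Agt encodes angiotensinogen, the precursor from which renin and then angiotensin-converting enzyme (Ace) release angiotensin II. Agtr1a encodes the type 1 receptor, which carries most of the known actions of the hormone on blood vessels, and Agtr2 the type 2 receptor, which is abundant in fetal tissue. Adipose tissue makes angiotensinogen itself. Npy1r encodes a receptor of neuropeptide Y that lowers cyclic AMP. Mc2r encodes the receptor for adrenocorticotropic hormone, which raises cyclic AMP and, in rodent fat cells, the breakdown of stored fat. It reaches the cell surface only with the help of the accessory protein encoded by Mrap.

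Values are log2 signals, on which a difference of 1 is 2-fold, and a gene is called different at 2-fold or more. The medians of the 6 arrays lay between 5.41 and 5.49 and their 25th percentiles between 4.05 and 4.13. Genes with a mean of at least 5.87, the median of all gene means, are taken as passing the filter on low signal. Of the 7 genes 4 passed (Agt, Agtr2, Npy1r and Mrap), and Ace, Agtr1a and Mc2r did not. Mrap and Mc2r were above 5.87 on the 3 adipocyte arrays and below it on the 3 fibroblast arrays. With 1 array per condition no difference has a replicate check, and neighbouring values in any order given below cannot be told from culture-to-culture variation. At the filter level the adipocyte markers set the labels apart, and the fibroblast and preadipocyte markers did not. Of 9 adipocyte markers measured, 9 were above the filter level in each adipocyte culture and 3 in each fibroblast culture. The 8 fibroblast and preadipocyte markers were above it on all 6 arrays. None of 7 adrenal cortex markers and none of 6 endothelial markers reached 5.87 on any array, and 3 of 6 neuron, 3 of 5 vascular smooth muscle and 4 of 6 macrophage and leukocyte markers stayed below it on all 6. In bulk RNA, fewer cells of a type and less RNA per cell cannot be told apart.

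**Figure D1:**
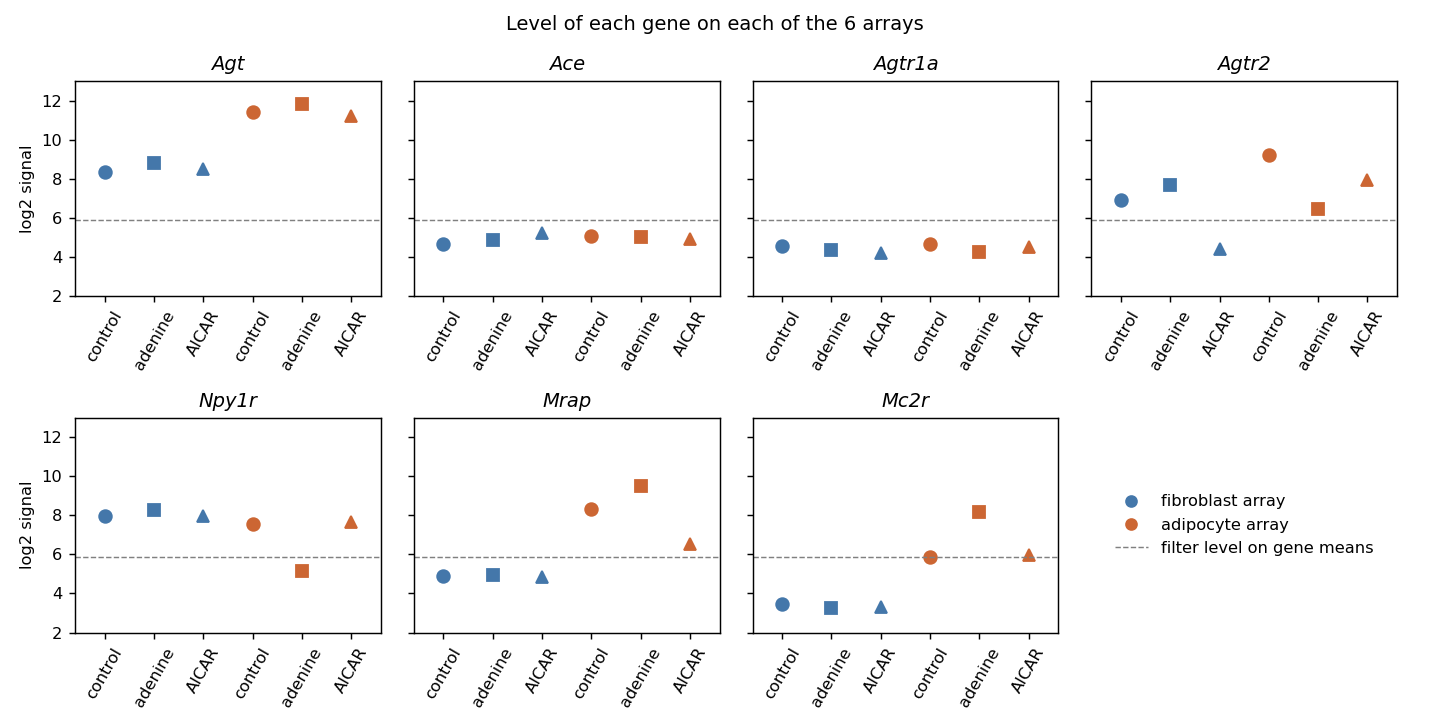
Each panel shows the log2 signal of 1 gene on the 6 arrays, in fibroblasts (blue) and adipocytes (orange) with control, adenine or AICAR medium, and the dashed line is the filter level of 5.87. Agt, Mrap and Mc2r are higher on all 3 adipocyte arrays than on all 3 fibroblast arrays, Npy1r is low only on the adenine adipocyte array (5.17), and Ace and Agtr1a stay below the line throughout.

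Angiotensinogen was the gene of the angiotensin system with the plainest division between cell states. Agt stood at 8.36 in control fibroblasts, 8.81 with adenine and 8.51 with AICAR, and at 11.4 in control adipocytes, 11.8 with adenine and 11.2 with AICAR. The 3 adipocyte values all lay above the 3 fibroblast values. The difference between states was 3.08 in control medium (8.44-fold), 2.99 with adenine and 2.70 with AICAR. Neither compound moved Agt by 2-fold in either state. With adenine it differed by 0.45 in fibroblasts and 0.37 in adipocytes, and with AICAR by 0.15 and -0.23. The promoter of Agt is shown here because the gene was higher in adipocytes in all 3 media. The window runs from 250 bases before to 50 bases after the transcription start on the minus strand, at chr8:124569657-124569956 (RefSeq, GRCm38.p6), and a TATA box is in capitals:
Agt: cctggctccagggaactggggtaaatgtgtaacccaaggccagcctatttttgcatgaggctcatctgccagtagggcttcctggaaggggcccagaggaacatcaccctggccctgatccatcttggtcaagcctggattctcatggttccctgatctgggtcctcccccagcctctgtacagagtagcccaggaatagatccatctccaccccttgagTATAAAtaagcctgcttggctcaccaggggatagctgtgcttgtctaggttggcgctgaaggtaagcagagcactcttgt

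A set of 6 short motifs was looked for on both strands of such windows. They were the TATA box TATAAA, the CCAAT box CCAAT, the site TTGCNNAA bound by C/EBP factors, the nuclear receptor hexamer AGGTCA, the cyclic AMP response element core TGACG and the glucocorticoid receptor hexamer AGAACA. No matches overlapped in the windows shown. In Agt the TATA box alone matched, with its first base 30 bases before the start, and 13.6% of 32851 promoter windows of the same length hold those letters. Of the 7 genes 4 had a window in the RefSeq table, and no window was used here for Agtr1a, Mrap and Mc2r.

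The enzyme and the type 1 receptor were dim. Ace stood at 4.67, 4.84 and 5.21 in control, adenine and AICAR fibroblasts and at 5.05, 5.02 and 4.91 in the corresponding adipocytes. Agtr1a stood at 4.53, 4.36 and 4.20 in fibroblasts and at 4.67, 4.27 and 4.49 in adipocytes. The fibroblast and adipocyte values of both genes overlap. Over the 6 arrays Ace had a range of 0.54 and Agtr1a one of 0.47, and neither reached 2-fold in any of 9 comparisons. At this signal a difference could go undetected, so the values do not show that the genes are silent.

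The type 2 receptor had one of the widest ranges of the group. Agtr2 stood at 6.89 in control fibroblasts, 7.67 with adenine and 4.42 with AICAR, and at 9.20 in control adipocytes, 6.46 with adenine and 7.91 with AICAR. From the highest to the lowest array, control adipocytes to AICAR fibroblasts, that is a range of 4.78 (27.5-fold). The order of the media differed between the states, since adenine gave the highest of the fibroblast values and the lowest of the adipocyte values. The adenine difference was 0.79 in fibroblasts and -2.74 in adipocytes (6.66-fold lower). The latter was the largest decrease among all 19938 genes in that comparison, a rank that is no finding since the group was chosen by such values. The AICAR difference was -2.47 in fibroblasts (5.54-fold lower) and -1.29 in adipocytes (2.45-fold lower). Agtr2 was thus at least 2-fold lower with AICAR in both states, which held for 12 of all 19938 genes (0.0602%). Adipocytes exceeded fibroblasts by 2.31 in control medium and by 3.49 with AICAR, and lay below them with adenine (-1.21).

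The neuropeptide Y receptor stood apart on a single array. Npy1r stood at 7.98 in control fibroblasts, 8.28 with adenine, 7.97 with AICAR, 7.57 in control adipocytes, 5.17 with adenine and 7.65 with AICAR. On 5 of the arrays it lay between 7.57 and 8.28, and the adenine adipocyte array lay below all of these and below the filter level. The adenine difference was -2.39 in adipocytes (5.25-fold lower) and 0.30 in fibroblasts. With AICAR it differed by 0.08 in adipocytes and by -0.01 in fibroblasts, a value that turned to 0.04 after quantile normalization. Adipocytes differed from fibroblasts by -0.41 in control medium, -3.11 with adenine and -0.32 with AICAR.

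Agtr2 and Npy1r were the genes of the group that were lower in adenine adipocytes than in control adipocytes by at least 2-fold. Their promoters are given for that reason, on the plus strand, with the same span as for Agt, at chrX:21484374-21484673 and chr8:66697172-66697471 (RefSeq, GRCm38.p6). The motif match is in capitals:
Agtr2: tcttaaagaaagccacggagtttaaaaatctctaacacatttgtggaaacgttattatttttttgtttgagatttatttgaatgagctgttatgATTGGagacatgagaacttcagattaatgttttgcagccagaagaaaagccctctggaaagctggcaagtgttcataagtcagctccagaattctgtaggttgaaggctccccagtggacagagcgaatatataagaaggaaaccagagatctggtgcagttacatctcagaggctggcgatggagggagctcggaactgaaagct
Npy1r: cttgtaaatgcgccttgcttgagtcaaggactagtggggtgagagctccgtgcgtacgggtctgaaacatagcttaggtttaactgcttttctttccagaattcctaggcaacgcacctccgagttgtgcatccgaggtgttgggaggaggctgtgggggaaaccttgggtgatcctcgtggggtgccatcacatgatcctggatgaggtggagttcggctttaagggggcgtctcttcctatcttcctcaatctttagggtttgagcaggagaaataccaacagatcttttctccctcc

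In Agtr2 the CCAAT box matched on the opposite strand, and 37.4% of all windows hold one. In the printed Agtr2 window it reads ATTGG, which begins 156 bases before the start. None of the other 5 motifs matched there letter for letter, and none of the 6 did in the Npy1r window. Variants of the letters were not searched for. The Agtr2 window holds tatataag before the start, which resembles a TATA box without holding TATAAA and is not marked. The shares of all windows were 10.8% for TTGCNNAA, 16.3% for AGGTCA, 20.8% for TGACG and 19.0% for AGAACA. A window without these letters says nothing of the factors elsewhere.

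**Figure D2:**
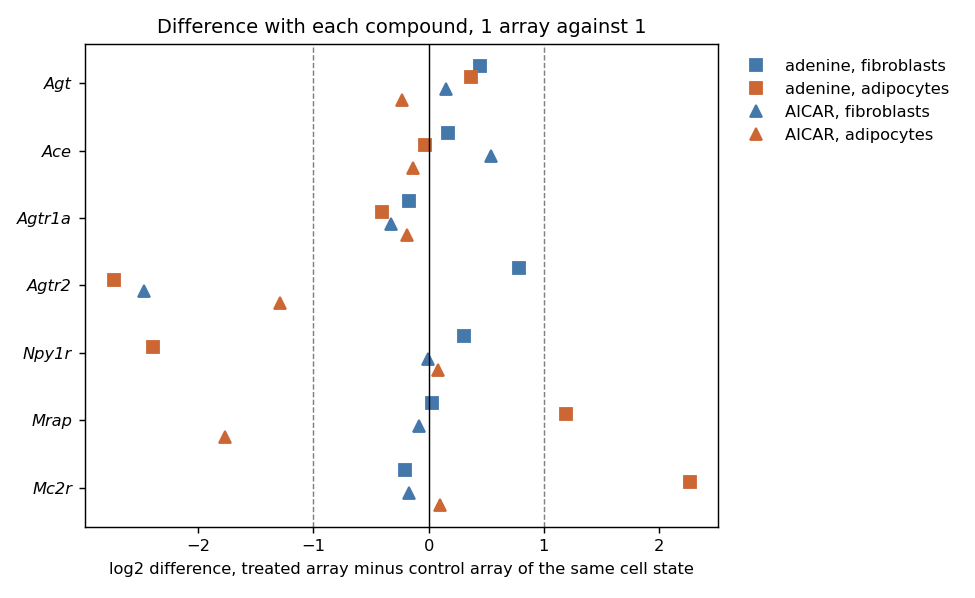
The horizontal axis is the log2 difference of a treated array from the control array of the same cell state, for fibroblasts (blue) and adipocytes (orange) with adenine (squares) or AICAR (triangles), and dashed lines mark 2-fold. The adenine adipocyte squares lie at -2.74 for Agtr2, -2.39 for Npy1r, 1.19 for Mrap and 2.27 for Mc2r, while all 7 fibroblast squares lie inside the lines.

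Both melanocortin genes were higher in adipocytes. Mrap stood at 4.91, 4.94 and 4.83 in control, adenine and AICAR fibroblasts, and at 8.32 in control adipocytes, 9.51 with adenine and 6.55 with AICAR. All 3 adipocyte values were above the fibroblast values, with state differences of 3.41 (10.6-fold), 4.57 (23.7-fold) and 1.73 (3.31-fold). Mc2r stood at 3.46, 3.26 and 3.30 in the fibroblasts and at 5.89 in control adipocytes, 8.15 with adenine and 5.98 with AICAR. The fibroblast values are below the 25th percentile of their arrays, so the size of the state differences (2.42, 4.89 and 2.69) depends on the background. With signals raised to that percentile they became 1.83, 4.07 and 1.91, each still above 2-fold.

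The receptor and its accessory protein did not share the same response to the compounds in adipocytes. With adenine both were higher, Mrap by 1.19 (2.28-fold) and Mc2r by 2.27 (4.81-fold). With AICAR Mrap differed by -1.76 (3.40-fold lower), which was among the 3 largest decreases of all genes, while Mc2r differed by 0.10. In fibroblasts the compound differences of both lay between -0.21 and 0.03. Over all 6 arrays, Mrap and Mc2r nevertheless had the most similar patterns to each other within the group, apart from the dim pair Ace and Agtr1a (0.28), with a root mean square difference of 0.55 between their centred log2 values. The value for Agt was 0.72 from Mrap and 0.65 from Mc2r, and for Npy1r it was 2.76 and 2.78.

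Counted over the group, 4 of the 7 genes were at least 2-fold higher in control adipocytes than in control fibroblasts (Agt, Agtr2, Mrap and Mc2r) and none was lower. In that comparison 1.68% of all 19938 genes were at least 2-fold higher, and 2.88% of the 9969 that pass the filter. With adenine in both states 3 were higher and 2 (Agtr2 and Npy1r) lower, beside 3.86% and 4.89% of all genes. With AICAR in both states 4 were higher, beside 3.27%. Agt, Mrap and Mc2r were higher in all 3 media, as were 0.893% of all genes. With adenine in fibroblasts none of the 7 was called, and 0.135% of all genes were. With AICAR in fibroblasts 1 was lower, beside 2.12%. In adipocytes adenine gave 2 higher and 2 lower, beside 0.843% and 1.29%, and AICAR gave 2 lower (Agtr2 and Mrap), beside 0.221%. The median difference of the 7 genes was 2.31 between control states (0.08 over all genes), -0.03 with adenine in adipocytes (-0.07) and -0.18 with AICAR in adipocytes (-0.04). Since the group was assembled from such values, its excess over these shares is no finding. The adenine and AICAR comparisons share the control array of their state.

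Set directly against each other at the same dose and exposure, the compounds gave different levels of 4 of the 7 genes in adipocytes, where 1.99% of all genes were called. AICAR minus adenine was 1.44 for Agtr2, 2.48 for Npy1r, -2.95 for Mrap and -2.17 for Mc2r. In fibroblasts 1 was called, beside 3.29%, with Agtr2 lower under AICAR by a difference of -3.25. For Agt the difference was -0.59 in adipocytes and -0.30 in fibroblasts, under 2-fold in both.

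The markers of the 2 cell states moved with these values in some comparisons and not in others. In adenine adipocytes 5 of 9 adipocyte markers were at least 2-fold higher than in control adipocytes, with a median difference of 1.00, and 7 of 8 fibroblast and preadipocyte markers were lower by at least 2-fold, their median being -1.58. Of all genes that pass the filter 1.24% were higher and 2.4% lower. Adiponectin (Adipoq) differed by 1.54 and the secreted protein gene Retn by 1.63, beside Mrap at 1.19 and Mc2r at 2.27. The collagen gene Col1a1 differed by -1.75 and periostin (Postn) by -2.30, beside Npy1r at -2.39 and Agtr2 at -2.74. The summed signal of the adipocyte markers was 14.9 on the adenine array and 14.0 and 13.9 on the control and AICAR adipocyte arrays. That of the fibroblast markers was 12.5, against 14.0 and 13.8. With AICAR in adipocytes the adipocyte markers had a median of -0.00 and 1 of 9 was lower by 2-fold (0.381% of all genes that pass), Retn at -1.13, beside Mrap at -1.76. In AICAR fibroblasts 4 of 8 fibroblast markers were at least 2-fold lower (3.69% of all genes that pass), among them the preadipocyte factor Dlk1 at -2.45 and the collagen gene Col3a1 at -1.17, beside Agtr2 at -2.47. Of the other markers Postn differed by 0.39 and Pdgfra by 0.16 there, and the adipocyte markers Fabp4 by 1.65 and Pparg by 0.96. The fibroblast markers did not follow Agtr2 and Npy1r everywhere. With AICAR in adipocytes Agtr2 differed by -1.29, while those markers had a median of -0.20. Between control states Agtr2 differed by 2.31, while their median was -0.82. Npy1r differed by -0.01 in AICAR fibroblasts, where 4 of the 8 were lower. The part of cell state in the differences of the genes of the group was not tested.

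The genes with the most similar patterns over the 6 arrays were found by the smallest root mean square difference of centred log2 values. Only genes that pass the filter were searched, which left out Mc2r, Ace and Agtr1a. For Agt they were Il1rn, an inhibitor of interleukin-1 signalling (0.21), the phosphatidate phosphatase Lpin1 (0.22) and the aldehyde dehydrogenase Aldh1a7 (0.24). For Agtr2 they were Sned1 (0.48), the gap junction gene Gja1 (0.71) and the calcium channel gene Cacna1g (0.73). Sned1 stood at 6.52 in AICAR fibroblasts and 8.83 in controls, and at 9.16 in adenine adipocytes and 10.9 in controls. For Npy1r they were Myof, which encodes myoferlin (0.27), the transcriptional corepressor Runx1t1 (0.28) and the hydroxylase Cyp7b1 (0.29), each lowest on the adenine adipocyte array. For Mrap they were Ang5 of the angiogenin family (0.41), the integrin Itga6 (0.52) and the cytochrome Cyp2f2 (0.56). Mc2r, which was not searched, was nearer to Mrap (0.55) than Cyp2f2. For Mc2r they were Itga6 (0.33), the hormone-sensitive lipase gene Lipe (0.36) and the acyltransferase gene Gpat3 (0.36). The likeness covers 6 arrays that share 2 cell states. When only genes above the 75th percentile of mean signal were searched, 7 of these 15 choices were kept.

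**Figure D3:**
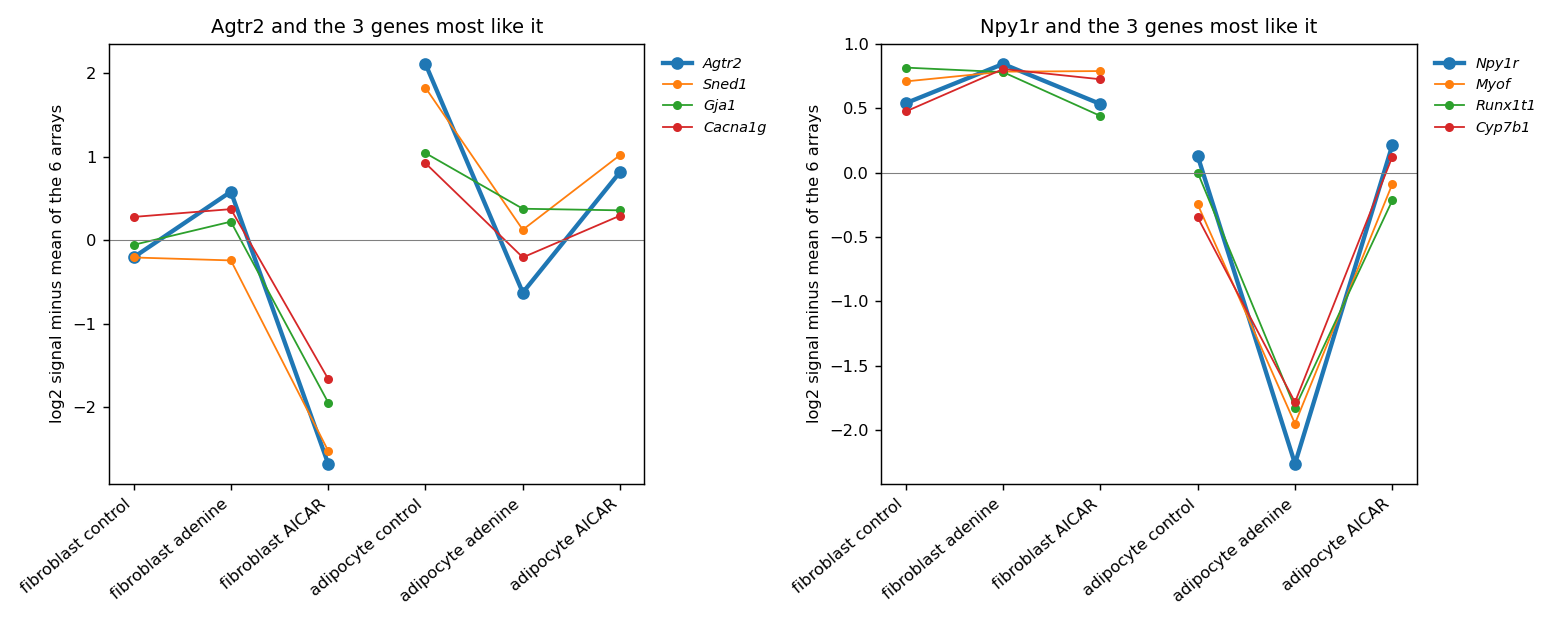
Lines show the log2 signal minus the mean of the 6 arrays for Agtr2 (left) and Npy1r (right) in bold, with the 3 genes most like each. Agtr2 is lowest in AICAR fibroblasts, as are Sned1, Gja1 and Cacna1g, and Npy1r is lowest in adenine adipocytes, as are Myof, Runx1t1 and Cyp7b1.

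The other genes of the 3 systems were taken from lists. Of those of the renin-angiotensin system 19 of 24 were measured and 11 passed the filter, and 3 of these reached 2-fold in any of 7 comparisons against a control or between states in 1 medium, where 22.1% of all genes that pass the filter did. The (pro)renin receptor gene Atp6ap2 was 9.25 in control fibroblasts and 7.70 in control adipocytes, a difference of -1.54. Mtus1, whose product binds the type 2 receptor, was 5.91 and 7.42, higher in control adipocytes by 1.51, and 8.22 with adenine. The aminopeptidase Anpep differed between states by -0.68 in control medium, -1.55 with adenine and -2.03 with AICAR. Agtrap, which encodes a protein that binds the type 1 receptor, lay between 7.84 and 8.52, with no 2-fold difference. The receptor gene Mas1 lay between 3.56 and 4.29.

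The neuropeptide Y list held other ligand and receptor genes of the family and the peptidase genes Dpp4, Fap and Xpnpep2. Of its genes 10 of 10 were measured and 3 passed. Of those 2 reached 2-fold in any of the 7 comparisons, beside 22.1% of all genes that pass. Both encode proline-specific peptidases. Among the ligand and receptor genes only Pyy passed, and none reached 2-fold. Fap was 6.80, 7.43 and 8.29 in control, adenine and AICAR fibroblasts and 5.79, 4.65 and 4.96 in the adipocytes, so all adipocyte values lay below all fibroblast values. Xpnpep2 differed by -1.38 with AICAR in fibroblasts and by -1.24 with adenine in adipocytes. The ligand gene Npy itself lay between 5.11 and 5.46 and the receptor gene Npy5r between 4.19 and 4.48, both below the filter level on all 6 arrays.

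Of the other melanocortin genes 12 of 15 were measured and 6 passed, of which 3 reached 2-fold in any of the 7 comparisons, again beside 22.1%. Mc5r had a wider range over the 6 arrays (5.56) than any of the 7 genes described above. Mc5r, another melanocortin receptor and the protein-coding gene next to Mc2r on its chromosome, was 4.81, 4.29 and 4.56 in control, adenine and AICAR fibroblasts and 8.96, 9.85 and 8.72 in the adipocytes. Its state differences were 4.15, 5.56 and 4.16, and with adenine in adipocytes it differed by 0.89. Carboxypeptidase E (Cpe), which trims peptide hormones, differed by -1.46 with adenine in adipocytes and by 0.00 with AICAR. The proteoglycan gene Sdc3 was lower in adipocytes in all 3 media, with differences of -1.73, -2.03 and -1.65. The precursor gene Pomc lay between 4.92 and 5.40 and Mrap2, the relative of Mrap, between 4.36 and 4.74.

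**Figure D4:**
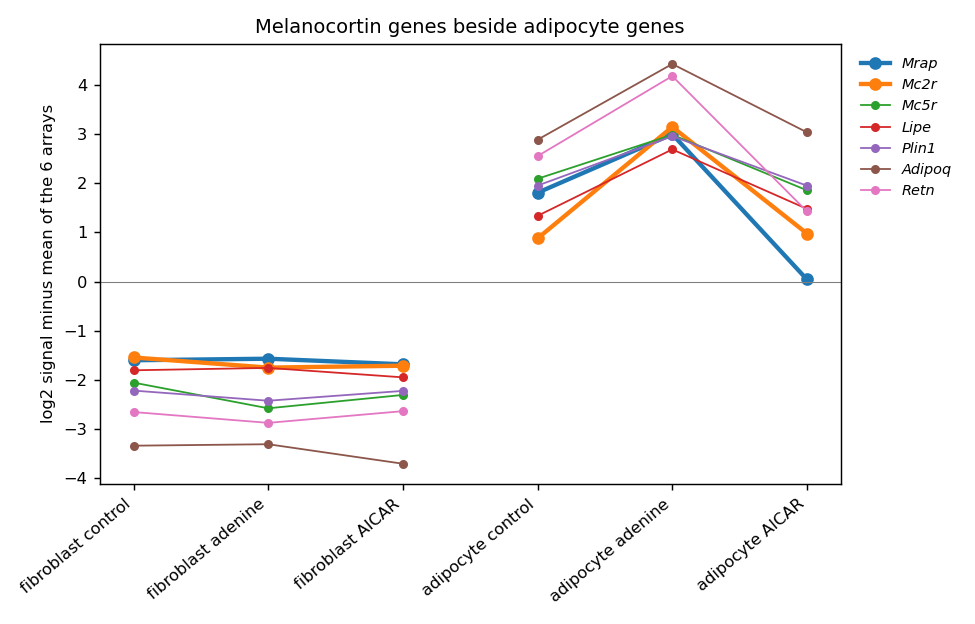
Lines show the log2 signal minus the mean of the 6 arrays for Mrap and Mc2r (bold), Mc5r, and the fat cell genes Lipe, Plin1, Adipoq and Retn. All 7 are lowest in the 3 fibroblast cultures and highest in adenine adipocytes, and with AICAR in adipocytes Mrap is at -1.76 and Retn at -1.13 from the control.

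Downstream of these receptors, 26 of 32 genes of cyclic AMP signalling and lipolysis were measured and 18 passed. In control adipocytes 8 of the 18 were at least 2-fold higher than in control fibroblasts and 0 lower, beside 2.88% of all genes that pass called higher. The median of the 18 was 0.74, beside 0.02 over all genes that pass. Over all 26 measured genes the same 8 were higher and the median was 0.16, beside 0.08 over all genes. Among the genes called higher were the lipase genes Lipe (3.14) and Pnpla2 (2.48) and the lipid droplet gene Plin1 (4.17, also counted among the adipocyte markers). The phosphodiesterase gene Pde3b (2.44) and the kinase subunit gene Prkar2b (1.36) were others. With adenine in adipocytes 4 of the 18 were higher by 2-fold (Lipe at 1.35, Pnpla2 at 1.16, Pde3b at 1.14 and Plin1 at 1.00), beside 1.24% of all genes that pass. The median of the 18 was 0.03 there, beside 0.02 over all genes that pass, with 9 above 0 and 9 below. With AICAR in adipocytes 0 were higher by 2-fold, beside 0.612%. In AICAR fibroblasts 2 were higher, the phosphodiesterase genes Pde4b at 1.35 and Pde4d at 1.05, beside 1.7% of all genes that pass. Of the genes of Gq and angiotensin signalling 21 of 23 were measured and 18 passed, with 2 higher and 1 lower between control states, beside 2.88% and 4.27% of all genes that pass. The phospholipase gene Plcb1 differed by 2.18, the regulator of G protein signalling Rgs2 by 1.51 and the kinase gene Prkcd by -1.01. No gene of that list reached 2-fold with either compound in either state, where adenine gave 0.13% in fibroblasts and 3.64% in adipocytes of all genes that pass, and AICAR 5.39% and 0.993%. The lists hold few genes each, and their counts are given beside the shares of all genes and not tested.

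**Figure D5:**
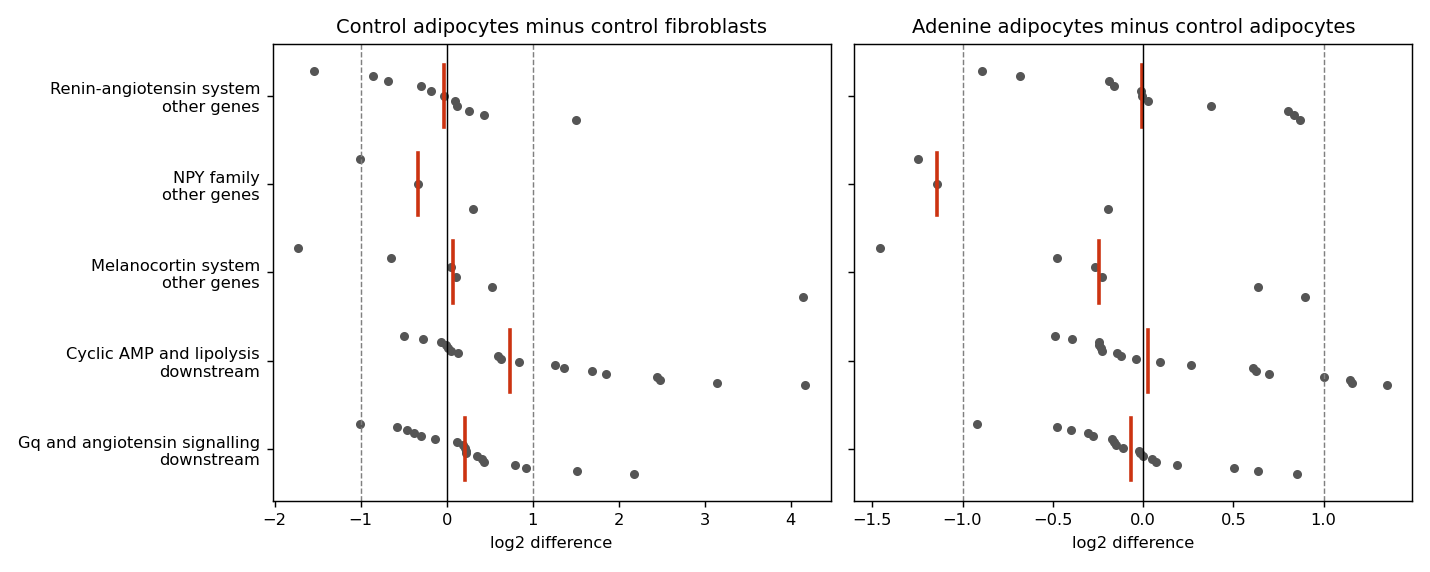
Each point is 1 gene of the 5 pathway lists that passes the filter, placed by its log2 difference between control states (left) or between adenine and control adipocytes (right). Red bars are list medians, and dashed lines mark 2-fold. The cyclic AMP and lipolysis list has 8 points beyond the right line on the left panel and 4 on the right panel.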

How the data were processed

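Total RNA of 6 3T3-L1 cultures was measured on Affymetrix whole-transcript arrays. The authors deposited log2 values for 35556 probe sets, and the submitters' processing notes name Transcriptome Analysis Console 1.0.0.234 and mm10. The steps of background correction, normalization and probe set summary were not given in the sources used here, so values were used as deposited. Groups came from the labels.

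The platform annotation gave 1 symbol to 21789 probe sets, and the probe set with the highest mean stood for each of 19938 genes. The log2 values of 2 arrays were subtracted in 9 comparisons and differences of 2-fold or more were called. A difference between 2 single arrays has no test. An additive model of state and medium could be fitted, but was not, since the members were chosen by these values. Counts were set beside all genes and the 9969 genes at or above the median mean. The members and lists were chosen with earlier results of these data known.

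Named genes were the 7 members and up to 6 genes a list with a 2-fold difference in any of 7 comparisons. For members with a range of at least 1, the 3 genes most alike in pattern were also named. They were sought among genes that pass the filter, passing over predicted genes, small RNAs and chemosensory receptors. Agtrap, Mas1, Npy, Npy5r, Pomc and Mrap2 were added after their values were seen. Alternatives were quantile normalization, median centring, the mean of all probe sets, a floor at the 25th percentile, a 1.5-fold threshold and other filters. Calling and likeness steps were run on simulated data with planted changes and an assumed noise. That checks the code and says nothing of the reliability of the calls. Python 3.11.15, pandas 2.3.3 and numpy 2.4.6 were used. Promoters came from RefSeq, GRCm38.p6.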

Additional observations from a re-analysis of the deposited data

Results flagged for a closer look

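A group of 3 results stood out because the adenine difference ran in opposite directions in the 2 cell states. It was at least 2-fold in adipocytes and under 2-fold in fibroblasts. The adipocytes had adenine together with the inducing drugs and then 3 days without it, and the fibroblasts did not. Cell state, drugs and time since exposure therefore cannot be told apart here. Each state has 1 treated and 1 control array, and the differences between states were not tested. For Agtr2 adenine gave 0.79 in fibroblasts and -2.74 in adipocytes, a difference between states of -3.52, the lowest of all 19938 genes. The group was chosen by values that include that decrease in adipocytes, so the rank is no finding. The same -3.52 separates the adipocyte minus fibroblast difference in adenine medium (-1.21) from that in control medium (2.31). For Npy1r the values were 0.30 and -2.39, a difference of -2.70. For Mc2r they were -0.21 and 2.27, a difference of 2.47, but the fibroblast value lies below the 25th percentile of the arrays and turned to 0.03 with a floor there.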

How the results depend on the processing

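All 63 differences of the 7 genes (9 comparisons) kept their side of the 2-fold threshold under quantile normalization, median centring, the mean of all probe sets (which by construction cannot move genes with 1 probe set) and the floor at the 25th percentile. No called difference changed direction. The sign of uncalled differences turned in 2 cases under quantile normalization, 1 under median centring and 3 with the floor, of which 1 under each scaling was that of Ace with adenine in adipocytes (-0.03 as deposited, 0.03 and 0.04). The largest move was 0.82, for Mc2r with the floor. With a threshold of 1.5-fold 1 gene (Agtr2), not 0, was called for adenine in fibroblasts. With a filter at the 75th percentile the genes reaching 2-fold in any of 7 comparisons numbered 1 in the renin-angiotensin list, 0 in the neuropeptide Y list, 1 in the melanocortin list and 4 in the cyclic AMP and lipolysis list, since fewer genes were tested, and 7 of 15 most similar genes were kept (14 without a filter). Without a filter the share of genes called moved by over 1.5 times in 8 of 9 comparisons. The 3 pairs of states in the same medium are given as 3 differences and no paired test was made, since the members were chosen by these values. Low signal limits Ace, Agtr1a and fibroblast Mc2r.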
